A study of Homo sapiens with 402 samples.

Results

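The genes described here are 10 genes of inflammation and of the acute phase response: the cytokines IL1A, IL1B and IL6, the chemokines CXCL1, CXCL2, CXCL3 and CCL20, the feedback gene TNFAIP3, and the serum amyloid genes SAA1 and SAA2. They were chosen by name, and all 10 were listed among the 34718 gene symbols counted in the 378 libraries of sequencing run 2 and among the 15081 counted in the 24 libraries of run 1. MCF10A, an established line of breast epithelium that does not form tumours, was the cell used throughout. The cells were exposed for 48 h to 21 chemicals at 0.025, 0.25, 2.5 and 25 µM, with 4 libraries per dose, labelled as biological replicates, except 3 for MPB and for PPB at 0.025 µM and for Cadmium at 25 µM, and RNA was sequenced by plexWell, a plate-based method that gives each well its own barcode. Of the 402 libraries, 69 were controls that received no chemical.

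Interleukin-1 and tumour necrosis factor bind receptors at the cell surface and free the transcription factor NF-kB from its inhibitors, after which NF-kB enters the nucleus and raises the transcription of cytokines, chemokines and its own inhibitors. In epithelium, IL-1α is held in the cell and released on damage, IL-1β needs cleavage before release, and the chemokines draw neutrophils and other leukocytes. Serum amyloid A is known best as a liver protein of the acute phase, and is made by epithelial cells too, where IL-1, IL-6 and NF-kB drive its genes.

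Each chemical was compared with the controls of its own plate. Plate 3153-AT held the water-dissolved metals Arsenic, Cadmium, Copper, Lead and Mercury beside 15 water controls. The bisphenols BPA, BPF and BPS shared plate 3206-AT and its 15 DMSO controls with MPB and PPB. Thiram, PCB153, PCB187, DCB_14 and DCP_25, also in DMSO, shared the 15 controls of plate 3284-AT. On plate 3240-AT the 12 DMSO controls served Phenanthrene, PFOS, PFNA and PFDA, and 4 water controls served PFOA. DDE was on the plate of run 1, and its solvent is labelled DMSO, whereas the 8 controls that share its plate barcode are labelled water. The stated plate of these 8 controls is 3153-AT, so the labels do not settle whether they belong to DDE. All groups are wild-type cells of 1 line, so the p-values measure the spread between wells of that line. Cadmium at 25 µM rested on 2 libraries, since the plate barcode in the label of another cadmium library at this dose differs from that of its stated plate, and it was left out.

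Library totals, in units of 1000000 counts (M), ranged from 1.43 to 25.8 M counts on plate 3153-AT and from 2.31 to 22.5 M on 3284-AT, with medians of 11.9 to 13.85 M on the 4 plates of run 2 and 6.42 M on the DDE plate. All 10 genes passed the filter on low counts on the 4 plates of run 2, and 9 of 10 on the DDE plate, where IL6 did not. Markers of cultured basal breast epithelium were present, with a median of 1181 CPM for KRT5 (CPM, counts per 1000000 of effective library size), 1252 for KRT6A and 184 for EGFR. The other basal markers listed had medians of 189.9 CPM for KRT17, 67.0 for ITGA6, 20.9 for KRT14, 10.6 for CDH1 and 3.66 for TP63. TP63 had no count in 13 libraries. Of 10 markers of other cell types, the medians of CD3E, CD68, PGR, PTPRC, VWF, ESR1 and PDGFRB were 0, those of COL1A1 and PECAM1 were 2.78 and 1.19 CPM, and that of CD14 was 29.9 CPM. In bulk RNA, fewer cells that make a transcript and less of it per cell cannot be told apart.

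The genes lie on 5 chromosomes of GRCh38 by the GENCODE v29 annotation. IL1A (chr2:112773915-112784590) and IL1B (chr2:112829751-112836903) are neighbours on the minus strand, and CCL20 (chr2:227805739-227817564) lies on the plus strand of the same chromosome. The 3 CXCL genes lie close together, CXCL1 at chr4:73869393-73871242 on the plus strand, CXCL3 at chr4:74036589-74038807 and CXCL2 at chr4:74097035-74099293 on the minus strand. TNFAIP3 is at chr6:137867188-137883312 and IL6 at chr7:22725884-22732002, both on the plus strand. SAA1 (chr11:18266174-18269977, plus strand) and SAA2 (chr11:18239223-18248643, minus strand) are near-identical copies. Of all 50-base windows of the annotated SAA1 transcripts, 46.6% also occurred in SAA2, so reads from the pair may be split or lost and their values are uncertain to that extent. The exons of IL6 overlap genes on the opposite strand over 20.7% and 2.2% of their bases and those of SAA2 the read-through gene SAA2-SAA4 over 12%. Since strand handling is not given in the sources used here, reads from IL6 and its opposite strand cannot be told apart.

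Several members carry a match to the NF-kB binding consensus just before the start site, and these windows are shown because the genes are known as NF-kB targets. RefSeq promoters (GRCh38.p14, 250 bases before to 50 after the start) were given for 8 of the 10 genes, and SAA1 and SAA2 are named only. Of the 8, 6 held a match to the decameric NF-kB consensus on either strand, against 5.9% of all 35116 promoters, and 1 held the AP-1 motif TGANTCA on either strand, against 7.7%. The windows below run in each gene's own direction, 5′ to 3′, with the match in capitals.
CXCL1 (chr4:73869304-73869333, plus strand): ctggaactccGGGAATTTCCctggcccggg
CXCL2 (chr4:74099254-74099283, minus strand): ctggagctccGGGAATTTCCctggcccggg
CXCL3 (chr4:74038749-74038778, minus strand): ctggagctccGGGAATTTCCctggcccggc
CCL20 (chr2:227813753-227813782, plus strand): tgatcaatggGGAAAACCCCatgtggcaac
TNFAIP3 (chr6:137867182-137867211, plus strand): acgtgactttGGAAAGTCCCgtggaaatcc
TNFAIP3, downstream match (chr6:137867194-137867223, plus strand): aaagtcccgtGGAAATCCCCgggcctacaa
IL6 (chr7:22727117-22727146, plus strand): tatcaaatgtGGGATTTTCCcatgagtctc
IL1A, AP-1 (chr2:112784489-112784515, minus strand): cgaagaagacTGACTCAggcttaagct
The 3 CXCL windows hold the same 10 letters, which also match the consensus on the other strand 1 base further on. The IL1B window held neither motif. A match is a description of the letters in these windows.

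Per kilobase of exon, the median control levels of the 61 control libraries of run 2 differed widely. SAA1 was highest at 1191 CPM per kilobase, followed by CXCL1 at 758. CXCL2, SAA2 and CCL20 were between 34.4 and 51.1, and CXCL3 was at 16.03. IL1A and IL1B, at 8.48 and 8.29 CPM per kilobase, had overlapping ranges (1.95 to 25.9 and 1.54 to 22.9). TNFAIP3 was at 5.45 and IL6 lowest at 0.836, with control libraries at 0. The ranges of neighbours in this order overlapped.

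The controls themselves fell into separate levels by library number, and this split bears on every comparison that follows. Controls of run 2 carry a running number and its dosed libraries a replicate number from 1 to 4. On each plate of run 2 the first 8 controls and dosed replicates 1 and 2 are called low-numbered here, and the remaining controls and replicates 3 and 4 high-numbered. The labels do not say what the numbers stand for.

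SAA1 and SAA2 had the largest differences on plate 3153-AT. There the 8 low-numbered controls held 1694 to 2157 CPM of SAA1 (median 1866), and the 7 high-numbered controls 127 to 311 CPM (median 186.5). The 2 sets did not overlap, and the log2 difference was 3.27 ± 0.10 (SE, adjusted p = 2.52e-39, edgeR quasi-likelihood test). For SAA2 the ranges were 230 to 314 and 6.48 to 30.7 CPM, a log2 difference of 3.91 ± 0.14. On plate 3284-AT SAA1 ranged from 2236 to 3211 CPM in the low-numbered and from 620 to 1748 CPM in the high-numbered controls, again without overlap. On 3206-AT the SAA1 difference did not pass (0.04 ± 0.11, adjusted p = 0.885).

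Of the 9 members tested on plate 3153-AT, 8 were higher in the low-numbered controls at an adjusted p under 0.05, where 20.3% of all genes tested there differed in either direction. The chemokine differences on the log2 scale were 1.80 for CXCL1, 1.96 for CXCL2, 1.75 for CXCL3 and 1.59 for CCL20. TNFAIP3 differed by 1.10 and IL1B by 0.60. IL1A, with medians of 33.9 CPM in both sets, did not pass (0.14 ± 0.17, adjusted p = 0.62). On 3284-AT 6 of 10 passed (CCL20, CXCL1, CXCL2, CXCL3, SAA1, SAA2; 6.38% of all genes), on 3240-AT, DMSO controls alone, 7 of 9 (the same 6 and IL1B; 0.546%), and on 3206-AT 3 of 10 (CXCL1, CXCL2, CXCL3; 6.07%). All calls were higher in the low-numbered set, and CXCL1, CXCL2 and CXCL3 were called on all 4 plates. IL6 had no count in any of the 7 high-numbered controls of 3153-AT, against 0.158 to 3.93 CPM in the low-numbered ones.

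**Figure D1:**
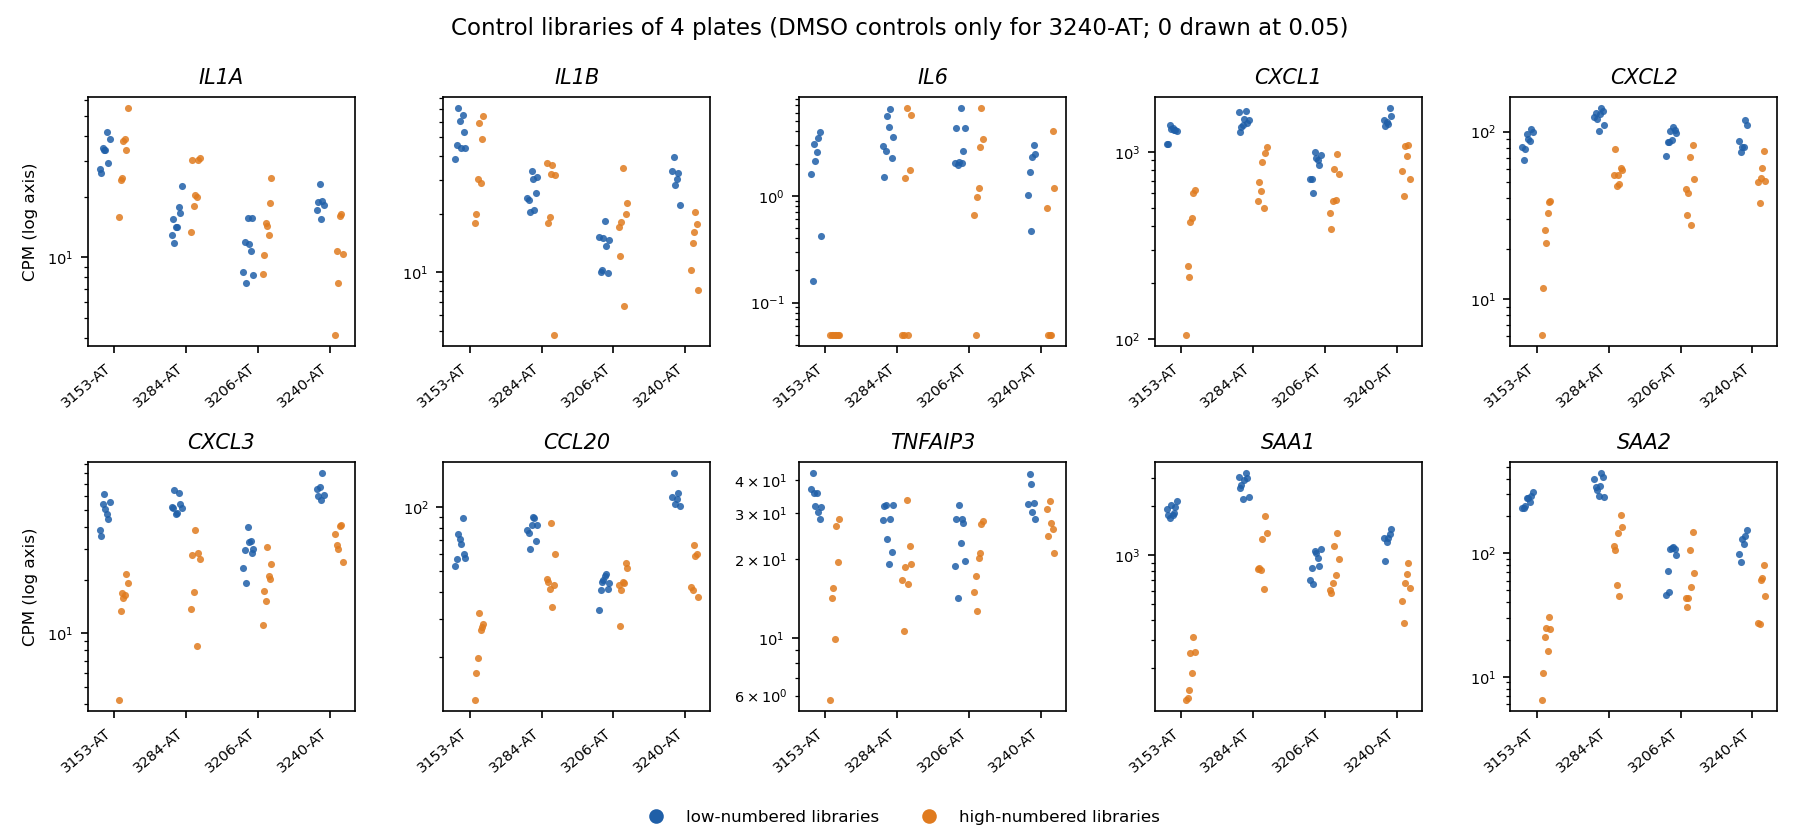
CPM of each gene (log axes, a level of 0 drawn at 0.05) in the control libraries of the 4 run 2 plates (for 3240-AT the DMSO controls), low-numbered in blue and high-numbered in orange, 1 point per library. On plate 3153-AT the 8 low-numbered controls sit between 1694 and 2157 CPM for SAA1 and the 7 high-numbered ones between 127 and 311, while the IL1A points of both sets overlap.

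Depth moved with the split in the controls but not in the dosed libraries. On 3153-AT the median total was 20.9 M in the low-numbered and 3.17 M in the high-numbered controls, but 14.05 and 14.01 M in the dosed libraries, where the SAA1 medians were 1420 and 359 CPM. The summed level of the 10 markers of other cell types was also higher in the low-numbered controls of that plate (57.6 to 83.4 against 21.5 to 42.9 CPM). Over all libraries CD14 had a median of 29.9 CPM and the next of these markers, COL1A1, 2.78, so the sum rests mostly on 1 gene. The summed basal epithelial markers were 3462 to 3753 CPM in the low-numbered and 3620 to 4198 CPM in the high-numbered controls of that plate. The part of depth, of these markers and of anything else that goes with the numbers was not tested. Results are given against all controls of a plate, and, where it differs, from a fit with an added term for low or high numbers (the number-adjusted fit) and within each set.

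At 25 µM, 19 of the 209 tests of a member against its plate controls passed an adjusted p of 0.05 (9.09%, against 4.85% of all tests over genes and chemicals at that dose), 11 higher and 8 lower. In the number-adjusted fit, which excludes DDE, 34 of 200 passed (17%, against 5.12% of all), 13 higher and 21 lower. In that fit 42.3% of all genes passed for Arsenic, 9.2% for Cadmium, 7.57% for Copper and 6.52% for Lead, while PFOS and Mercury gave 0.139% and 0.202%. With all controls, the calls came from Arsenic, Cadmium, Copper, Lead, Thiram and PFOS. The number-adjusted fit added single falls with 3 more chemicals, SAA1 with BPF, SAA2 with Mercury and CXCL3 with PFNA. The calls with all controls fell into 2 kinds: IL1A, IL1B, CXCL3 and CCL20 were higher with metals, and SAA1, SAA2, CXCL1, CXCL2 and IL6 were lower with Thiram or metals. The PFOS call was a fall of CXCL3. TNFAIP3, which encodes a deubiquitinating enzyme that shuts off NF-kB signalling, passed in none of 84 tests over all chemicals and doses (edgeR, 8 at an unadjusted p under 0.05).

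**Figure D2:**
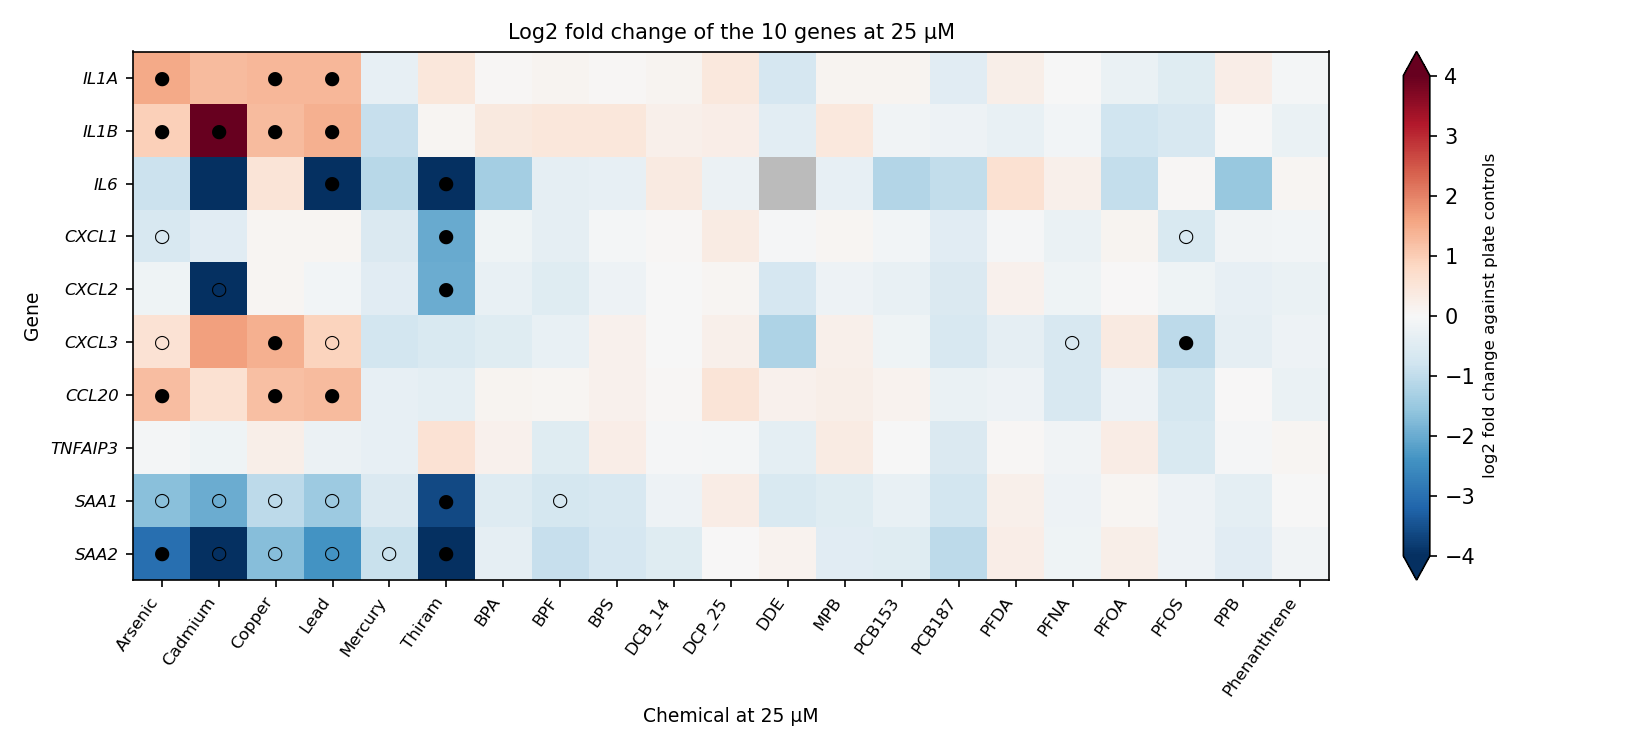
Log2 fold change of each gene (rows) at 25 µM of each chemical (columns) against the controls of its plate, in colour from -4 (blue) to 4 (red), with values beyond that range in the end colours and the untested IL6 of DDE in grey. Filled circles mark adjusted p under 0.05 and open circles those that pass only with the term for library numbers, and the filled circles of IL1A, IL1B and CCL20 stand with Arsenic, Copper and Lead, Cadmium having 1 for IL1B.

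IL1A, the alarm cytokine that epithelial cells hold ready, rose with 3 metals. Arsenic at 25 µM gave 102, 82.0, 107 and 79.4 CPM of IL1A in its 4 libraries, against a range of 15.8 to 55.01 in the 15 controls (median 33.9). All 4 lay above every control, and the log2 fold change was 1.5 ± 0.18 (SE, adjusted p = 1.78e-11), where 41.4% of all genes passed for Arsenic. Lead gave 99.3, 86.6, 61.4 and 81.4 CPM of IL1A, also above every control, a log2 fold change of 1.33 ± 0.18 (adjusted p = 2.4e-08; 3.85% of all genes passed). Copper gave 106, 90.4, 47.2 and 79.6 CPM, of which 1 library overlapped the controls, and 1.32 ± 0.18 (adjusted p = 2.04e-08; 5.09% of all genes). The log2 fold changes of IL1A were 1.5 in the low-numbered and 1.71 in the high-numbered libraries for Arsenic, 1.47 and 1.23 for Lead, and 1.56 and 1.07 for Copper, and all 6 passed. In the low-numbered libraries 38.1%, 6.65% and 11% of all genes passed for Arsenic, Lead and Copper, and in the high-numbered ones 32.6%, 3.51% and 1.8%.

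IL1A rose with Arsenic and Copper at 0.25 µM too, by 0.89 ± 0.19 (adjusted p = 0.024; 0.07% of all genes) and 0.85 ± 0.18 (adjusted p = 0.0174; 0.156%) on the log2 scale. At 2.5 µM the log2 fold changes were 1.30 for Arsenic, 1.15 for Copper and 0.76 for Lead, all called (1.96%, 3% and 0.613% of all genes passed). The medians for Arsenic were 50.7, 62.98, 63.98 and 92.1 CPM from the lowest dose to the highest, with a slope of 0.29 ± 0.07 log2 units per 10-fold dose (adjusted p = 0.000633; 29.7% of all genes). For Lead the medians were 45.2, 52.03, 53.8 and 84.0 CPM and the slope 0.27 ± 0.07 (adjusted p = 0.0402; 0.868%). For Copper the medians were 54.55, 58.6, 73.5 and 85.0 CPM, with a slope that passed in the number-adjusted fit (0.22 ± 0.06, adjusted p = 0.00929; 4.63% of all genes) and not without that term. For all 3 metals the IL1A median at 0.025 µM already lay above the control median of 33.9 CPM, though no member passed at that dose. Over all dosed libraries of plate 3153-AT the IL1A medians were 45.8 CPM (low-numbered) and 56.9 CPM (high-numbered), against 33.9 in both sets of controls. For CCL20 they were 97.4 and 59.8 CPM, against 63.8 and 26.8. Whether dosed libraries differ from controls apart from the chemical was not tested. The same-numbered libraries of Lead and of Mercury deviated together over the doses. With the replicate number as a block (replicate block), the slopes of 7 Lead members passed instead of 1: CCL20 (0.35), CXCL3 (0.29), IL1A (0.27), IL1B (0.33), IL6, SAA1 (-0.51) and SAA2 (-0.72), where 2.7% of all genes passed. For Mercury the block gave 1 slope, IL1B (-0.45, adjusted p = 0.0158; 0.161% of all genes), instead of 0.

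IL1B, the inducible partner that is made as an inactive precursor, rose with 4 metals, Cadmium among them. The 2 Cadmium libraries at 25 µM held 454.5 and 1124 CPM of IL1B, on 362 and 803 counts, against 18.03 to 70.97 CPM in the 15 controls. Both lay above all controls, with a log2 fold change of 4.04 ± 0.37 (adjusted p = 7.98e-16), where 11% of all genes passed. Both are low-numbered, and against low-numbered controls alone the value was 3.88 ± 0.25 (9.9% of all genes passed). These libraries were shallow (1.434 and 1.455 M counts), the median of all genes in that comparison was -1.42 on the log2 scale, and the median of the 10 members -0.32. At the 3 lower Cadmium doses IL1B stayed between 37.4 and 90.7 CPM, and no member passed.

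Arsenic, Copper and Lead raised IL1B as well. Lead at 25 µM gave 181, 156, 56.2 and 121 CPM of IL1B (log2 fold change 1.43 ± 0.25, adjusted p = 3.69e-05), of which 1 library lay within the controls. Copper gave 169, 162, 50.9 and 71.5 CPM (1.26 ± 0.25, adjusted p = 0.000257). Arsenic gave 153, 135, 30.7 and 54.3 CPM (0.96 ± 0.27, adjusted p = 0.00207), and here both high-numbered libraries fell within the range of the controls. Within the high-numbered set the IL1B value of Lead passed (1.30 ± 0.34), while those of Copper (0.81 ± 0.36, adjusted p = 0.369) and Arsenic (0.45 ± 0.40, adjusted p = 0.44) did not. For Arsenic and Copper the difference between the sets did not pass a test of its own (adjusted p = 0.354 and 0.641). The Arsenic call was also lost without replicate 1 or replicate 2. At 2.5 µM, IL1B passed with Copper (110 to 137 CPM, 1.38 ± 0.25) and Arsenic (38.7 to 186 CPM, 1.18 ± 0.26).

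Between metals at 25 µM, IL1B was lower with Arsenic than with Cadmium (log2 difference -3.07 ± 0.43, 95% interval -3.91 to -2.24, adjusted p = 1.65e-07 over all genes of 8 pairs, 4.81% of which passed in this pair). No other member passed between these metals. Between Copper and Lead no difference passed for IL1A (-0.02, interval -0.45 to 0.41) or IL1B (-0.17, interval -0.79 to 0.45).

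IL6, the cytokine that signals through gp130 and drives the acute phase in liver, was near 0 in many libraries. With Thiram at 25 µM no IL6 count was found in any of 4 libraries, while 12 of the 15 controls of that plate held some, 591 counts in all and 3.5 CPM when pooled. A floor of 3 counts summed over the 4 libraries corresponds to 0.155 CPM, so IL6 was at least 22.5-fold lower (adjusted p = 0.0107, edgeR; 25.9% of all genes passed for Thiram). Within the high-numbered libraries alone this did not pass (adjusted p = 0.389), nor without replicate 3. With Lead at 25 µM, 2 counts were found in 4 libraries, against 366 counts in the 15 controls, a ratio of 0.0152 with a 95% counting interval of 0.00184 to 0.0554 (adjusted p = 0.00714). All 366 control counts came from the low-numbered controls, against which the ratio was 0.0125 on 1 count (0.000315 to 0.07), and the call was lost without replicate 1. Copper, another metal at this dose, held 4.14, 3.08, 1.34 and 1.93 CPM of IL6, and the difference between Copper and Lead passed (adjusted p = 0.00784; 0.819% of all genes in that pair). With Cadmium the floor was 1.99 CPM against 1.96 in the pooled controls, so a fall of IL6 was not detectable at this depth.

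CCL20, the ligand of CCR6 that draws lymphocytes and dendritic cells to epithelium, rose with the metals that raised IL1A. Lead at 25 µM gave 195, 189, 56.8 and 65.0 CPM of CCL20, Copper 179, 180, 50.2 and 73.7, and Arsenic 183, 192, 55.02 and 65.02. In the controls the low-numbered libraries held 52.9 to 89.2 CPM and the high-numbered ones 12.6 to 32.1, so each dosed library lay above every control of its own set, though the pooled ranges overlapped. The log2 fold changes were 1.27 ± 0.28 for Lead, 1.21 ± 0.28 for Copper and 1.23 ± 0.29 for Arsenic, all called. Within the low-numbered set they were 1.52, 1.42 and 1.52, and within the high-numbered set 1.46, 1.49 and 1.57. CCL20 passed at 2.5 µM with all 3 metals (1.56 for Arsenic, 1.08 for Copper, 1.14 for Lead), and at 0.25 µM in the number-adjusted fit (1.01, 0.97 and 0.78, where 0.465%, 1.29% and 0.63% of all genes passed). Without replicate 1 or without replicate 2 the Copper and Lead calls at 25 µM were lost.

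**Figure D3:**
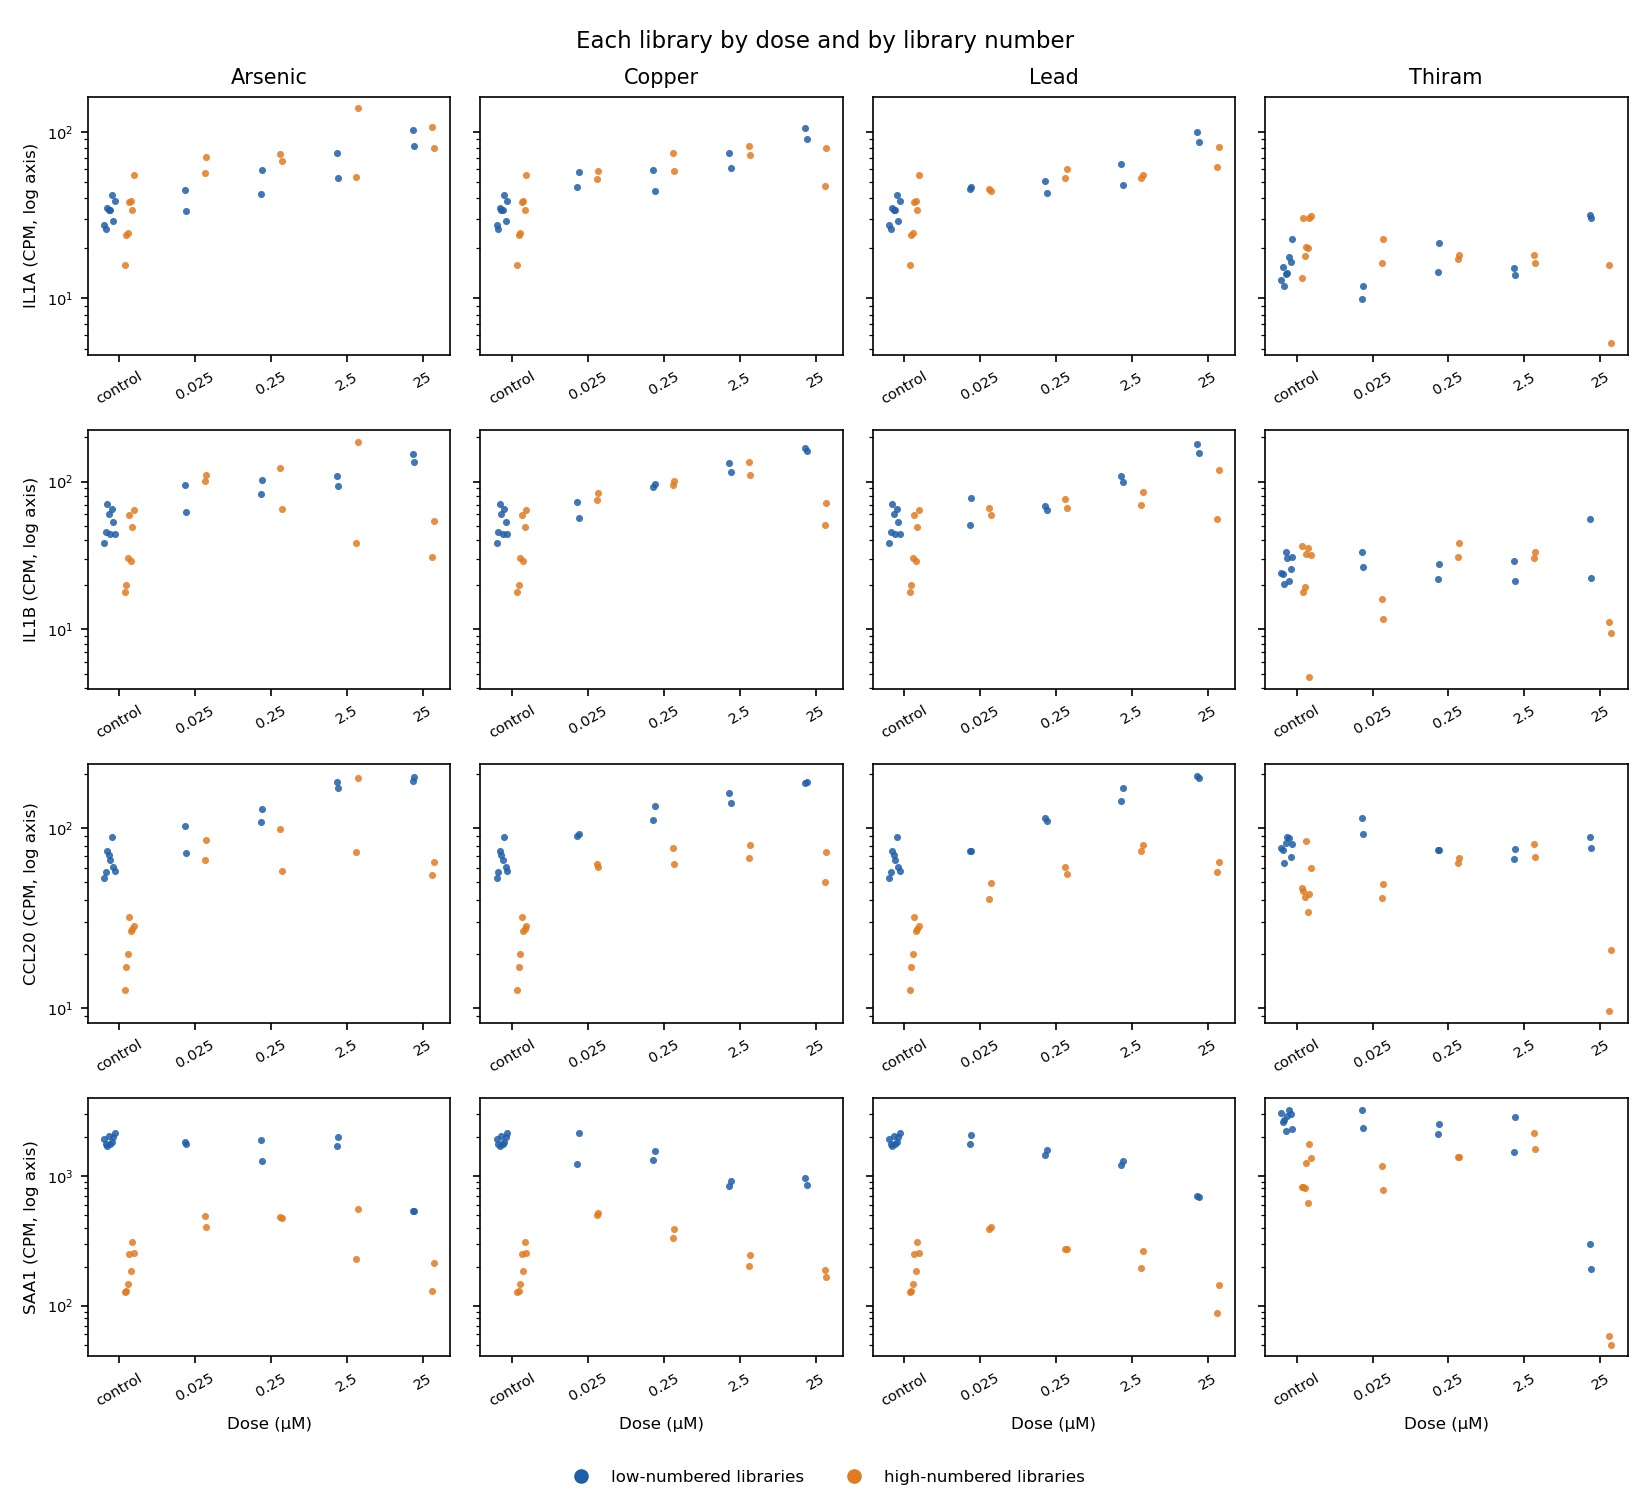
CPM (log axes) of IL1A, IL1B, CCL20 and SAA1 in every library of the controls and of the 4 doses (µM, horizontal axis) of Arsenic, Copper, Lead and Thiram, low-numbered libraries in blue and high-numbered in orange. CCL20 points of both colours lie above the controls of their colour at 25 µM of the 3 metals, and SAA1 at 25 µM of Thiram lies at 50.1 to 300 CPM, below every control.

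CXCL3, a neutrophil chemokine at low level, was the only CXCL gene among the members that rose with metals when all controls were used. Copper at 25 µM gave 155, 174, 26.3 and 57.8 CPM of CXCL3, against 35.6 to 61.3 in low-numbered and 4.20 to 21.5 in high-numbered controls (1.43 ± 0.30, adjusted p = 0.000482). The pooled ranges overlapped, and within each set the dosed libraries lay above the controls. Within the sets, the value was called in the low-numbered (1.75 ± 0.11) and not in the high-numbered libraries (1.54 ± 0.48, adjusted p = 0.09), and the call was also lost without replicate 2 (adjusted p = 0.07). CXCL3 passed with Arsenic at 2.5 µM (1.24 ± 0.31), and with Arsenic (0.71) and Lead (0.95) at 25 µM in the number-adjusted fit. With PFOS at 25 µM it fell, with 34.9, 30.8, 22.4 and 15.8 CPM against 25.2 to 80.4 in the 12 DMSO controls (log2 fold change -1.04 ± 0.22, adjusted p = 0.0116; 0.0668% of all genes). The PFOS fall was called in both sets (-0.97 and -0.85, where 0.0555% and 0.328% of all genes passed), and was lost without replicate 3 or replicate 4.

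CXCL1 and CXCL2, which also signal through the neutrophil receptor CXCR2, fell with Thiram. At 25 µM the CXCL1 libraries held 548, 417, 46.1 and 47.2 CPM, against 1275 to 1654 in low-numbered and 499 to 1067 in high-numbered controls, a log2 fold change of -2.02 ± 0.31 (adjusted p = 8.57e-08). Each dosed library lay below all controls of its own set. CXCL2 held 47.8, 26.7, 6.70 and 11.6 CPM, against 101 to 139 and 47.3 to 78.9 (-2 ± 0.37, adjusted p = 6.49e-06). At 2.5 µM of Thiram CXCL1 was 1273 to 1519 CPM, and no member passed there or at lower doses. The CXCL1 change was larger in the high-numbered set (-4.03 ± 0.27) than in the low-numbered one (-1.61 ± 0.10), and that difference passed its own test (2.43 ± 0.21, adjusted p = 3.03e-27). For Thiram 16% of all genes passed in the low-numbered and 15.4% in the high-numbered libraries, and 1.08% differed between the sets.

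With metals CXCL1 and CXCL2 did not pass when all controls were used, and the number-adjusted fit called them in both directions. Arsenic at 2.5 µM held 1625, 1603, 509 and 1817 CPM of CXCL1 and 100.9, 108, 48.7 and 142 CPM of CXCL2, and that fit called both higher (0.87 ± 0.22, adjusted p = 0.00676, and 0.70 ± 0.18, adjusted p = 0.0109; 3.5% of all genes). Arsenic at 25 µM held 851, 764, 165 and 427 CPM of CXCL1, called lower (-0.59 ± 0.24, adjusted p = 0.0375). CXCL2 at that dose held 94.0, 53.9, 30.3 and 57.4 CPM, with -0.20 ± 0.14 in the low-numbered set, not called, and 1.13 ± 0.32 in the high-numbered set, called (adjusted p = 0.00413), and the difference between the sets passed (adjusted p = 0.0419).

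With Cadmium at 25 µM, CXCL2 rested on 1 and 3 counts in the 2 libraries, 1.26 and 4.20 CPM, below the lowest of the 15 controls at 6.13 CPM, and was called lower in the number-adjusted fit alone of these 2 fits (-4.88 ± 1.63, adjusted p = 0.041; with all controls 0.106). CXCL3, at 65.3 and 178 CPM, lay above all controls (61.3 at most), without passing (1.63 ± 0.78, adjusted p = 0.208). CXCL1, at 519 and 746 CPM, did not pass either (-0.46 ± 0.58, adjusted p = 0.986). The 3 genes were not compared with each other by a test.

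TNFAIP3 levels were close in dosed and control libraries. Its 332 dosed libraries had a median of 26.97 CPM and the 69 controls 27.2. With Thiram at 25 µM it held 44.04, 33.7, 33.9 and 43.9 CPM, just above the highest of the 15 controls at 33.6, and did not pass (0.58 ± 0.26, adjusted p = 0.102), whereas its slope over the 4 Thiram doses did, at 0.26 ± 0.10 log2 units per 10-fold dose (adjusted p = 0.0475; 18.5% of all genes).

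SAA1 and SAA2, the acute phase genes, fell with Thiram. At 25 µM SAA1 held 300, 190, 57.9 and 50.1 CPM, against 620 to 3211 in the 15 controls, a log2 fold change of -3.62 ± 0.42 (adjusted p = 3.32e-12). SAA2 held 12.7, 10.4, 0.394 and 0.828 CPM, the last pair of values on 2 counts each, against 44.9 to 446 (-5.21 ± 0.87, adjusted p = 6.01e-07). No library overlapped the controls for either gene. The fall was called in both sets of libraries, by -3.49 and -4.27 for SAA1 and -4.95 and -7.72 for SAA2. At 2.5 µM of Thiram SAA1 was 1524 to 2843 CPM, so the change lay between the highest doses, and the slopes over 4 doses were -1.05 ± 0.14 and -1.47 ± 0.29 log2 units per 10-fold dose.

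With metals the SAA values depended on the set of libraries. SAA1 with Arsenic at 25 µM held 537 and 540 CPM in the low-numbered libraries, against 1694 to 2157 in their controls, and 129 and 214 CPM in the high-numbered ones, against 127 to 311. The log2 fold change was -1.66 ± 0.72 with all controls (adjusted p = 0.0535), -1.77 ± 0.13 in the low-numbered set and -0.05 ± 0.24 in the high-numbered set, and the difference between sets passed (adjusted p = 1.87e-05; 0.7% of all genes). SAA2 with Arsenic passed with all controls (-3.03 ± 0.95, adjusted p = 0.00645), with -3.03 in the low-numbered and -0.68 in the high-numbered set, where it did not pass (adjusted p = 0.316).

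Lead and Mercury had SAA2 called lower in both sets. Lead held 58.7, 60.2, 3.45 and 4.70 CPM of SAA2, against 230 to 314 and 6.48 to 30.7 in the controls of the respective set, with log2 fold changes of -2.17 ± 0.15 and -2.15 ± 0.53, both called, and -2.38 ± 0.84 with all controls, not called (adjusted p = 0.0975). SAA1 with Lead was 703, 692, 87.5 and 145 CPM (-1.30 in the number-adjusted fit, adjusted p = 1.28e-06). Copper lowered SAA1 and SAA2 in the number-adjusted fit (-0.83 and -1.52), and already at 2.5 µM (-0.69 and -1.26; 5.18% of all genes). Of the members, Mercury at 25 µM changed SAA2 alone in that fit (-0.88, adjusted p = 0.0482; 0.202% of all genes), with 179, 176, 1.58 and 5.604 CPM, and was not called with all controls (adjusted p = 1; 0.0617% of all genes). Within the sets its log2 fold changes were -0.60 ± 0.13 (0.12% of all genes) and -2.66 ± 0.59 (0.226% of all genes), both called. Cadmium gave 284 and 290 CPM of SAA1, below the low-numbered controls (-2.70 ± 0.22 in that set).

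**Figure D4:**
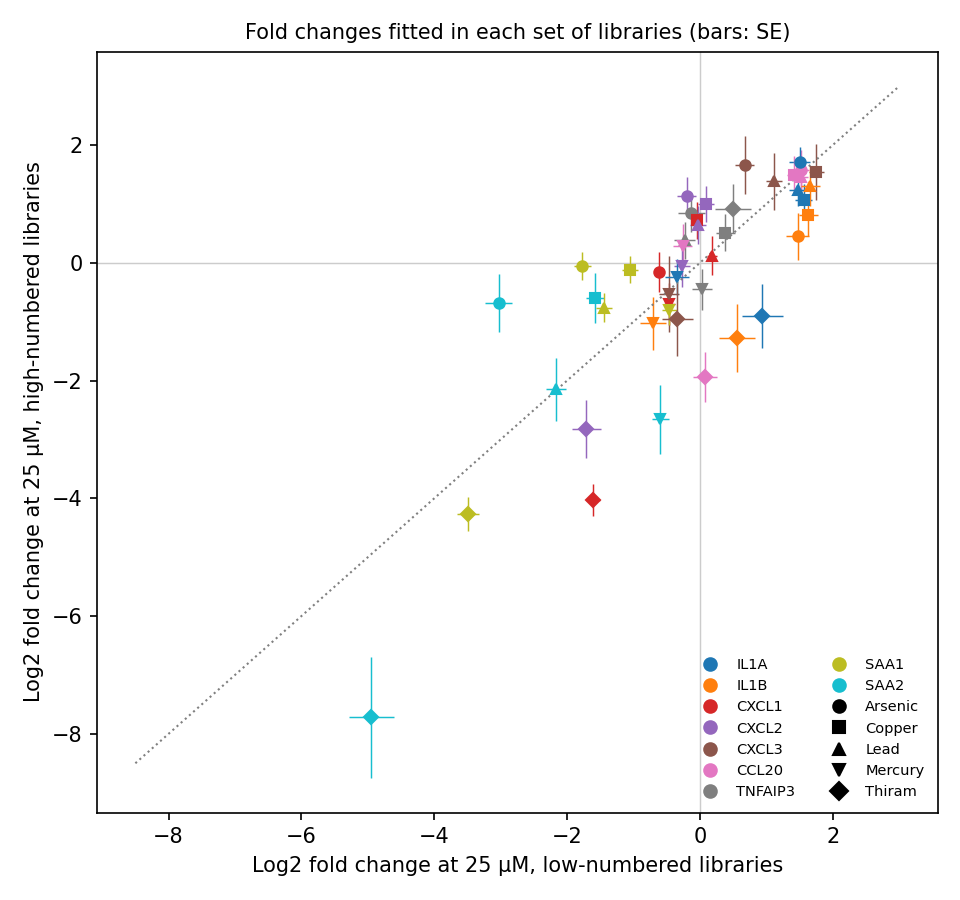
Log2 fold change at 25 µM fitted in the low-numbered (horizontal) and in the high-numbered libraries (vertical), with standard errors, for 9 genes (colours) and the 5 chemicals Arsenic, Copper, Lead, Mercury and Thiram (shapes), IL6 left out for its low counts. Arsenic SAA1 lies at -1.77 and -0.05, away from the dotted line of equal values, and Thiram SAA1 at -3.49 and -4.27.

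Called effects that held in both sets were counted over the 19 chemicals of run 2 with libraries in both at 25 µM. Of 190 member effects, 24 were called in each set, 20 with the same sign. Over all genes of these chemicals 4.1% of tests passed in the low-numbered and 2.99% in the high-numbered set, each taken alone. The share of all genes called in both sets was not worked out, so the count of 24 has no like measure beside it. The 4 with opposite signs were CXCL1 with BPF (-1.21 and 0.32), CXCL1 with DCB_14 (-0.34 and 0.70), CCL20 with PFDA (-0.67 and 0.62) and SAA1 with PFNA (-0.60 and 0.40). A test of the difference between the sets, chosen after the data were seen, passed for 33 of the 190 effects in 11 chemicals, against 0.239% of all tests. None of the 33 was IL1A, IL1B, IL6 or TNFAIP3, and 9 were SAA1 and 7 each CXCL1 and CCL20.

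BPF and PCB187 are examples at the level of single libraries. With BPF at 25 µM SAA1 held 301 and 319 CPM in the low-numbered and 752 and 806 CPM in the high-numbered libraries, where controls held 667 to 1098 and 586 to 1375. The first pair lay below all controls of its set and the second within them. With PCB187 the order was the other way, with SAA1 at 2025 and 1929 CPM in the low-numbered libraries and 643 and 188 CPM in the high-numbered ones. SAA1 passed for neither chemical when all controls were used (adjusted p = 0.0895 and 0.742; 0.0179% and 0.0235% of all genes passed). The number-adjusted fit called SAA1 lower with BPF (-0.72 ± 0.15, adjusted p = 0.00672; 0.126% of all genes). The difference between the sets passed for both (adjusted p = 1.23e-37 and 1.06e-09; 0.0942% and 0.0916% of all genes).

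For the remaining chemicals few members passed. SAA1 had a negative dose slope with BPS (-0.34 ± 0.06 log2 units per 10-fold dose, adjusted p = 0.00433, 0.00448% of all genes), with medians of 1202, 1108 and 990 CPM at the 3 lower doses and 333, 641, 710 and 615 CPM at 25 µM. In the number-adjusted fit PFOS lowered CXCL1 as well (-0.61, adjusted p = 0.0203), and at 0.25 µM PFDA raised SAA1 (0.66) and SAA2 (0.72), where 1.72% of all genes passed. It called CXCL3 lower with PFNA at 25 µM (35.4, 31.04, 32.5 and 32.2 CPM; -0.62 ± 0.17, adjusted p = 0.0495; 0.606% of all genes). That fit also called CXCL1 higher with BPA at 0.025 µM (0.50; 0.426% of all genes), CXCL1 and IL1B higher with BPS at 0.025 µM (0.55 and 1.02; 0.462%), and CXCL1 higher with MPB at 0.25 and 2.5 µM (0.53 and 0.52; 0.404% and 1.89%). Its called slopes for these chemicals were all negative: SAA1 with BPS (-0.34), MPB (-0.30, adjusted p = 0.0254) and PPB (-0.31, adjusted p = 0.0211), SAA2 with BPS (-0.39, adjusted p = 0.0177) and CXCL1 with PFOS (-0.23, adjusted p = 0.0259), where 0.0538%, 0.0448%, 0.00448% and 0.0822% of all genes passed for BPS, MPB, PPB and PFOS. With all controls, no member passed at 0.025 µM in 209 tests (0.0104% of all tests; edgeR, 36 at an unadjusted p under 0.05, and DESeq2 called 0 over the 20 chemicals of run 2 and 0 with DDE), 2 passed at 0.25 µM (0.0748%) and 9 at 2.5 µM (0.412%), all of them in metals and higher.

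DDE was tested on the plate of run 1, and none of 9 members passed at 25 µM, where 7.77% of all genes passed (edgeR, 1 member at an unadjusted p under 0.05, SAA1, and DESeq2 called 0). SAA1 was 64.2 to 107 CPM with DDE at 25 µM and 89.65 to 173 CPM in the 8 controls, with a log2 fold change of -0.61 ± 0.25 (adjusted p = 0.112). The control medians on this plate were 19.2 CPM for CXCL1, 0.939 CPM for SAA2 and 16.1 CPM for IL1A, and the runs were not compared by test. By the labels all DDE libraries are in DMSO and all their controls in water. In every DDE comparison the chemical therefore cannot be told apart from the solvent. The DDE libraries are numbered in order of dose, so library number and dose cannot be told apart on this plate.

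Chemicals of related structure were compared at 25 µM in 6 pairs, with p-values adjusted together with those of the 2 metal pairs over all genes of the 8. No member passed in the pairs of bisphenols, which differ in the bridge between the phenol rings, or in MPB against PPB, PFNA against PFDA, which differ in chain length, or PCB153 against PCB187, which differ in the number of chlorines. Of all genes, 0.0179% passed between BPA and BPF and between BPF and BPS, 0.0359% between BPA and BPS, 0.0224% between MPB and PPB, 0.118% between PFNA and PFDA and 0.0141% between PCB153 and PCB187, and 4 of 60 member tests had an unadjusted p under 0.05 (edgeR). For SAA1 the 95% interval of the log2 difference was -0.18 to 0.59 for BPA minus BPF, -0.27 to 0.50 for BPA minus BPS, and -0.48 to 0.30 for MPB minus PPB. It was -0.86 to 0.11 for PFNA minus PFDA and -0.29 to 1.19 for PCB153 minus PCB187. The widest of these leave room for a change of more than 1 log2 unit, so they do not show that the compounds act alike.

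Between solvents 4 members differed. The water controls of plate 3240-AT carry the last numbers of the low-numbered and of the high-numbered controls. Solvent therefore cannot be told apart from position in the numbering. On plate 3240-AT IL1A was 28.8 to 41.9 CPM in the 4 water controls and 4.14 to 23.2 CPM in the 12 DMSO controls, a log2 difference of 1.18 ± 0.19 (water minus DMSO, adjusted p = 4.05e-06; 4.08% of all genes). IL1B was 45.8 to 68.4 against 8.09 to 39.5 CPM (1.29 ± 0.21, adjusted p = 9.1e-06), and neither gene overlapped between solvents. SAA1 was lower in water, at 342 to 393 CPM against 383 to 1453 (-1.37 ± 0.23, adjusted p = 9.1e-06), as was SAA2, at 19.8 to 36.6 against 26.6 to 155 (-1.69 ± 0.34, adjusted p = 0.000465). The chemokines and TNFAIP3 did not pass. With PFOA, dissolved in water, no member passed against the 4 water controls at 25 µM (0% of all genes passed; 1 member, IL1B, at an unadjusted p under 0.05). The difference in solvents cannot be told apart from the difference between plates when levels on the metal plate are set beside those of the DMSO plates.

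**Figure D5:**
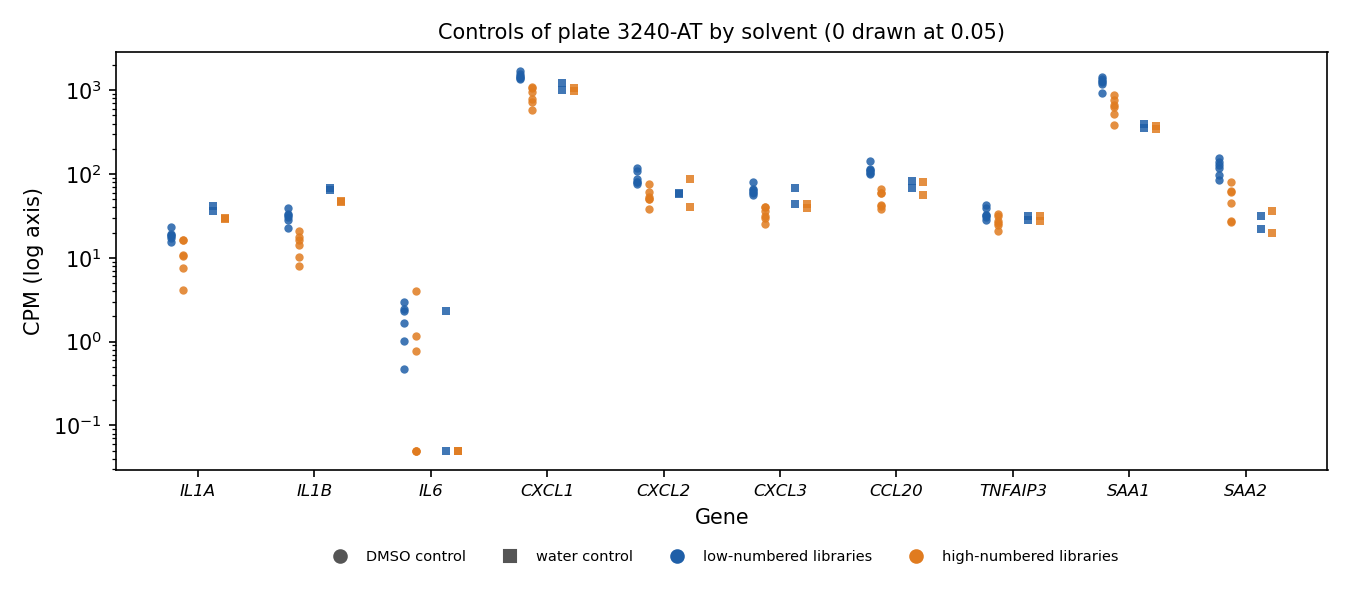
CPM (log axis, a level of 0 drawn at 0.05) of the 10 genes in the 12 DMSO controls (circles) and 4 water controls (squares) of plate 3240-AT, low-numbered in blue and high-numbered in orange. IL1A and IL1B squares lie above all circles, and SAA1 squares lie at 342 to 393 CPM, near the lowest circle at 383.

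Over the 80 dosed groups of run 2, some members varied together. Group means on the log2(CPM + 1) scale, less the mean of the dosed groups of their plate, correlated at a Pearson r of 0.69 for IL1A and IL1B, 0.78 for IL1B and CXCL3 and 0.72 for CXCL3 and CCL20, and at 0.97 for SAA1 and SAA2, 0.80 for SAA1 and CXCL1 and 0.67 for SAA1 and IL6. CXCL1 correlated with members of both groups, at 0.57 with CCL20 and 0.52 with CXCL3. TNFAIP3 correlated at no more than 0.39 with any member over all libraries. In the high-numbered ones it reached 0.63 with CXCL3, 0.53 with IL1B and 0.52 with IL1A, against 0.32, 0.08 and 0.24 in the low-numbered ones. Some pairs turned sign between the sets of libraries. All values in the high-numbered libraries lack the Cadmium group at 25 µM, since its 2 libraries used are low-numbered. The part of that group in the differences between the sets was not tested. IL1B and SAA1 correlated at -0.17 over all libraries, -0.41 in the low-numbered and 0.33 in the high-numbered ones, and IL1B and CXCL2 at -0.45, -0.46 and 0.57. In the high-numbered libraries CXCL1 also correlated with CCL20 at 0.82 and with CXCL3 at 0.75, and SAA1 with CCL20 at 0.63, against 0.55, 0.53 and 0.07 in the low-numbered ones. Groups of a plate share their wells' processing and the split by library number. These values are therefore descriptions, over 80 groups except in the high-numbered libraries. Among 18717 genes the 3 most like IL1B were CXCL3, ERCC1 (0.758) and SERPINB8 (0.751), those most like CXCL1 were CSF3 (0.819), SLC39A8 (0.812) and S100A9 (0.803), and those most like SAA1 were SAA2 (0.97), C3 (0.898) and C1R (0.863).

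Other secreted ligands rose with 4 of the 5 metals. Genes that are near 0 in controls can pass the filter on low counts only through a dosed group where they are high, so the counts of this and the next lists cover the genes that passed it in the controls of the plate alone, a restriction chosen after the data were seen. Unless stated, these counts come from the fit with all controls. Of the 20 ligands, 8 passed the filter in the controls of plate 3153-AT. At 25 µM, 6 of the 8 rose and 1 fell with Arsenic, 4 rose and 1 fell with Cadmium, 4 rose and 1 fell with Copper, 2 rose with Lead and none passed with Mercury (edgeR, 3 at an unadjusted p under 0.05), where 41.4%, 11%, 5.09%, 3.85% and 0.0617% of all genes passed. With Thiram 3 of 8 rose and 2 fell (25.9% of all genes). CSF3, the growth factor of neutrophils, was 428 to 1285 CPM with Lead against 111.5 to 548.5 in controls (1.26 ± 0.22). CSF1, the growth factor of macrophages, fell with Arsenic (-1.93 ± 0.25) and Thiram (-1.42 ± 0.37). IL18 was 62.8 and 79.8 CPM with Cadmium against 97.0 to 146 in controls. It was called lower with all controls (-0.74 ± 0.24) and not in the number-adjusted fit (-0.71, adjusted p = 0.145, edgeR). The median of all genes in this Cadmium comparison was -1.42 with all controls. CXCL8 was called higher with Arsenic, Cadmium, Copper, Lead and Thiram, and fell with PFOS (-0.91 ± 0.21).

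Ligands near 0 in controls are given by their levels. CSF2, which drives granulocyte and macrophage growth, was 3.25 to 10.6 CPM with Arsenic against at most 0.429 in controls, and 2.46 to 31.1 CPM with Thiram, where all 15 controls held 0. IL11, a cytokine of the IL-6 family, was 67.8 and 74.2 CPM with Cadmium against at most 1.05 in the 15 controls, and 0 to 1.38 CPM with DDE against 0.151 to 49.4 in the 8 controls of its plate, which overlap. IL24 was 2.87 to 138 CPM with Copper against at most 9.63.

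Genes of the NF-kB system passed in both directions. Of 18 NF-kB subunits, inhibitors and targets, 17 passed the filter in controls. With Arsenic 6 of the 17 rose and 5 fell, with Cadmium none rose and 2 fell, with Copper 1 rose and 1 fell, with Lead and Mercury none passed (edgeR, 4 and 2 at an unadjusted p under 0.05), and with Thiram 5 rose and 8 fell. These counts, with all controls, stand beside 41.4%, 11%, 5.09%, 3.85%, 0.0617% and 25.9% of all genes, and the Cadmium count in that fit is close to its background. The number-adjusted fit was counted over all 18 genes, TRAF1 included. There 8 rose and 5 fell with Arsenic, 6 fell with Cadmium, 2 rose and 1 fell with Copper, and 3 fell with Lead. In that fit 42.3%, 9.2%, 7.57% and 6.52% of all genes passed for these 4 metals. NFKBIA, the inhibitor that NF-kB itself induces, was 33.5 to 156 CPM with Thiram against 362 to 631 in controls (-2.33 ± 0.16), and 49.01 and 81.6 CPM with Cadmium against 251 to 543 (-2.65 ± 0.52). It also fell with DDE (-1.55, adjusted p = 0.0282), where 4 of the 18 genes tested on that plate fell and none rose (7.77% of all genes). By the labels, DDE cannot be told apart from its solvent in this comparison. The deubiquitinase CYLD rose with Arsenic (2.43 ± 0.13). BCL3, a nuclear partner of NF-kB, fell with Arsenic (-1.97 ± 0.26) and was 0 and 1.4 CPM with Cadmium against 16.3 to 87.1 in controls, and TNFAIP2 fell with Copper (-1.17 ± 0.23). TRAF1, the gene of the list that did not pass the filter in controls, was 0 to 10.4 CPM with Thiram against 0 to 5.03.

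Other acute phase and antimicrobial genes passed in both directions with metals and fell with Thiram. Of the 10 that passed the filter in the controls of plate 3153-AT, 2 rose and 5 fell with Arsenic, 1 rose and 2 fell with Copper, 1 fell with Lead, and none passed with Cadmium or Mercury (edgeR, 1 each at an unadjusted p under 0.05). Of 10 on the Thiram plate 5 fell and none rose. S100A8, a subunit of calprotectin, was 1.99 to 15.65 CPM with Arsenic against 8.19 to 1078 in controls (-5.75 ± 1.71), ranges that overlap, and also fell with MPB (-1.6 ± 0.40), where 2 of 9 fell (1.38% of all genes). Its partner S100A9 fell with Thiram (-5.96 ± 0.97), as did the protease inhibitor SERPINA1 (-1.38 ± 0.35). LCN2, an iron-sequestering defence protein, was 55.3 to 114 CPM with Arsenic against 0 to 11.1 in controls. The protease inhibitor PI3 rose with Copper (1.64 ± 0.38), at 4.94 to 75.2 CPM against 0.575 to 17.95. Complement C3 fell with Lead (-0.77 ± 0.23), and SLPI, another protease inhibitor, fell with PFDA (-1.26 ± 0.20), the 1 of 8 called there (0.0668% of all genes).

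Receptors and adaptors of these pathways moved both ways. Of 16 that passed the filter in controls, 4 rose and 6 fell with Arsenic, none rose and 2 fell with Cadmium, 3 rose with Copper, 1 fell with Lead, none passed with Mercury (edgeR, 0 at an unadjusted p under 0.05), and 4 rose and 3 fell with Thiram, beside the same shares of all genes, and the Cadmium share is again close to its background. TLR2, a sensor of bacterial lipoproteins, rose with Copper (2.48 ± 0.31), and TNFRSF1A, the main TNF receptor, fell with Cadmium (-2.04 ± 0.34) and Thiram (-1.12 ± 0.11). IL1RAP, the partner chain of the IL-1 receptor, rose with Thiram (1.08 ± 0.32). IL1R2, a decoy receptor of IL-1, fell with Arsenic (-2.44 ± 0.97), at 0.479 to 3.59 CPM against 0 to 16.3 in controls. OSMR, the oncostatin M receptor, fell with Lead (-0.45 ± 0.14), at 41.9 to 51.8 CPM against 47.3 to 88.7. For IL1RAP, IL1R2 and OSMR the dosed and control ranges overlap. Of those near 0 in controls, IRAK3 was 0 to 3.47 CPM with Arsenic against at most 0.600 in controls, and TLR4 was 0 and 28.01 CPM in the 2 Cadmium libraries against at most 2.29.

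Markers moved too. Of the 8 basal epithelial markers, 1 rose and 7 fell with Arsenic at 25 µM (41.4% of all genes), 2 rose and 2 fell with Cadmium (11%), 4 rose with Copper (5.09%), 1 fell with Lead (3.85%), none passed with Mercury (edgeR, 1 at an unadjusted p under 0.05; 0.0617%), and 2 rose and 1 fell with Thiram (25.9%). Of the 3 markers of other cell types that passed the filter in controls, COL1A1 rose and CD14 fell with Arsenic, and CD14 fell with Copper and Thiram. The part of these shifts in the cytokine, chemokine and SAA values was not tested.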

How the data were processed

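Counts of reads per gene symbol, made and deposited by the authors, were used as they stand. The submitters' processing notes name FastQC, MultiQC, STAR, featureCounts and the build GRCh38. Versions, the annotation and the use of strand: not given in the sources used here. Each plate was fitted with edgeR 4.0.16 (R 4.3.3, limma 3.58.1): genes were kept by filterByExpr (minimum count 10, minimum total 15), libraries scaled by TMM, and each dose compared with its plate's controls by the quasi-likelihood test with Benjamini-Hochberg adjustment over all genes of a comparison, called under 0.05. PFOA was set against water controls, DDE against the controls of its plate barcode. CPM uses effective library sizes. Slopes were fitted over the 4 doses without controls, and pairs were adjusted over all genes of 8 pairs. The edgeR comparison of a dose with controls was tested on simulated data for Thiram at 25 µM. Counts of called genes in the other lists cover genes that pass the filter in the controls alone, chosen after the data were seen.

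The labels call replicates biological, from 1 cell line. Same-numbered libraries were taken as paired where every correlation of their deviations over doses was above 0.1, which held for Lead (0.13 to 0.18) and Mercury (0.12 to 0.29). The number-adjusted fit, fits within each set of numbers, DESeq2 1.42.0, RLE scaling, no filter, fits of 2 groups alone, low-depth libraries left out, replicates left out and the replicate block were alternatives. The 10 genes, the other lists, the split by number and the tests were chosen with earlier results of these data known. Besides the 10 genes, the text names from each list the called genes with the highest and lowest fold change for Arsenic, Cadmium and Thiram, and the called gene with the smallest p for other chemicals, and the 3 genes most like IL1B, CXCL1 and SAA1. Intervals and floors of counts cover counting error only.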

Additional observations from a re-analysis of the deposited data

How the results depend on the processing

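The term for library numbers raised the member calls over 20 chemicals from 0 to 3 at 0.025 µM, from 2 to 10 at 0.25 µM and from 9 to 16 at 2.5 µM, the slopes called from 11 to 33, and the calls at 25 µM from 4 to 7 for Arsenic and for Lead, from 1 to 4 for Cadmium and from 1 to 5 for the other 14 chemicals. With the replicate block 31 slopes were called, and the 2 calls between pairs stayed at 2. Without the filter the counts were 26, 30 and 28 at the 3 lower doses, 8 for pairs, 51 for slopes, 28 for the other 14 chemicals, 7 for Arsenic, 7 for Lead, 4 for Cadmium and 2 for MPB. Within the low-numbered libraries they were 33, 29 and 35 at the lower doses, 17 for pairs, 64 for slopes, 23 for the other 14, 7 for Arsenic, 7 for Lead, 6 for Cadmium, 5 for MPB and 7 for water against DMSO. Within the high-numbered libraries they were 52, 56 and 46 at the lower doses, 24 for the other 14, 2 for Copper and 1 for MPB. For Cadmium, DESeq2 called 5 and the fit of 2 groups alone 2. DDE had 0 calls at each dose, and 2 at each dose without the libraries at the ends of its number runs. In the number-adjusted fit 0.0733%, 0.291% and 0.792% of all tests over genes and chemicals passed at 0.025, 0.25 and 2.5 µM. At 25 µM 4.1% passed within the low-numbered and 2.99% within the high-numbered libraries, over the 19 chemicals in both sets. For the other settings, and with replicates left out, shares of all genes are not given here. Those counts therefore describe the settings and are no result about the members. The cause of these shifts was not tested.

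Leaving out 1 replicate number at a time gave 0 to 1 calls at 0.025 µM, 0 to 2 at 0.25 µM, 1 to 2 for pairs, 6 to 16 for slopes, 1 to 3 for the other 14 chemicals, 2 to 4 for Copper, 2 to 5 for Lead, 0 to 1 for MPB, and for DDE 0 to 1 at 0.25, 2.5 and 25 µM. Among values for single called genes under an alternative, 209 kept their direction and call, 16 kept their direction and lost the call, and 1 reversed: IL6 with Lead within the high-numbered libraries, at 2.1 on the log2 scale, where the 7 controls held no count. RLE scaling changed no count of calls. Leaving out low-depth libraries was run for Arsenic, Copper, Lead and Thiram at 25 µM (4 to 6 calls each) and not for the other counts. Depth limits IL6, and Cadmium at 25 µM.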

Other observations

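The Cadmium library at 25 µM that was left out of the comparisons held 1.285 M counts. As CPM of its own total it had 1377 for SAA1, 873 for CXCL1, 180 for SAA2, 34.25 for IL1A and 21.02 for IL1B. In the 2 Cadmium libraries that were used, SAA1 was 284 and 290 CPM and IL1B 454.5 and 1124 CPM. With that library included, 1 member was called for Cadmium, as without it.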
